A study of Mus musculus with 24 samples.

Results

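The Pax6 peaks shared by lens and forebrain were 1137 regions of the mouse genome (build mm9) out of the 3815 Pax6 peaks listed in lens. They were chosen by the authors' Pax6 peak calls in both tissues: each overlapped a peak of the forebrain Pax6 list, which held 3536 peaks, by at least 1 bp. None overlapped an H3K4me3 peak of either tissue, so regions with the mark of active promoters were left out. In all, 1242 lens Pax6 peaks overlapped a forebrain Pax6 peak, and 105 of these were set aside for H3K4me3. The same rule left 2441 lens-only and 2171 forebrain-only Pax6 peaks. A tissue-only peak here is one with no peak listed in the other tissue, which does not show that Pax6 was absent there.

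Lenses came from newborn CD-1 mice at P1 and forebrains from CD-1 embryos at E12.5, and the labels name no mutation or treatment in any group. In each tissue ChIP-seq was run for Pax6, for the histone marks H3K4me1, H3K4me3, H3K27ac and H3K27me3 and for RNA polymerase II, and FAIRE was run in lens only. Each list came from 1 library, except that 2 forebrain Pax6 replicates were given as 1 list. No value could therefore be set against a spread between replicates, and the 95% intervals cover counting error over peaks only. All lens samples were older than all forebrain samples, and the effects of tissue and age cannot be told apart.

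Pax6 is a transcription factor that binds DNA through a paired domain and a homeodomain. It is needed to form the eye, where it acts in lens induction and on crystallin genes, and in the forebrain it acts in neural progenitors. Among the chromatin marks, H3K4me1 lies over enhancers, H3K27ac over active enhancers and promoters, and H3K27me3 over genes silenced by Polycomb complexes. FAIRE recovers DNA that is poor in nucleosomes.

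The lists differed in length. H3K4me1 was listed in 20811 islands in lens and 40774 in forebrain, over 74.1 and 145.6 Mb, and H3K27ac in 20053 peaks in lens and 26863 in forebrain. H3K27me3 covered 123.6 Mb in lens and 185.1 Mb in forebrain, and the lens FAIRE list held 107737 regions. The islands held between 1.26 and 9.40 M ChIP reads per list (M, 1e6 reads), and the sources used here do not give the depth of the peak-called libraries. The RNA-seq libraries of the series went with their tissue labels. All 9 lens genes of the marker list had higher RPKM in both lens libraries (epithelium and fibers) than in forebrain, and all 7 forebrain genes had lower RPKM there. The lens epithelium library also held the pigment cell genes Dct and Tyrp1 (24.1 and 21.2 RPKM). Their part in the lens lists was not tested. Pax6 itself had 141.6 RPKM in lens epithelium and 24.02 RPKM in lens fibers, against 28.1 RPKM in forebrain.

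Of the shared peaks, 649 (57.1%, exact 95% interval 54.1% to 59.98%) lay in H3K4me1 of at least 1 tissue, against 52.1% of all lens Pax6 peaks. The forebrain mark had a higher share among them than among lens-only peaks. Lens H3K4me1 lay at 493 shared peaks (43.4%, 40.5% to 46.3%), against 42.9% of all lens Pax6 peaks. Forebrain H3K4me1 lay at 556 (48.9%, 46.0% to 51.8%), against 33.5% of all lens Pax6 peaks. The lens mark thus had nearly the same share at shared (43.4%) and lens-only peaks (43.3%, 41.3% to 45.3%). For the forebrain mark the share was 48.9% at shared peaks and 23.6% (22.0% to 25.4%) at lens-only peaks. Seen from forebrain the order was the other way: forebrain H3K4me1 lay at 71.0% (69.1% to 72.9%) of forebrain-only peaks, above the shared peaks. The share of shared peaks was between those of the tissue-only groups for forebrain H3K4me1, forebrain H3K27ac and the H3K27me3 of both tissues.

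**Figure D1:**
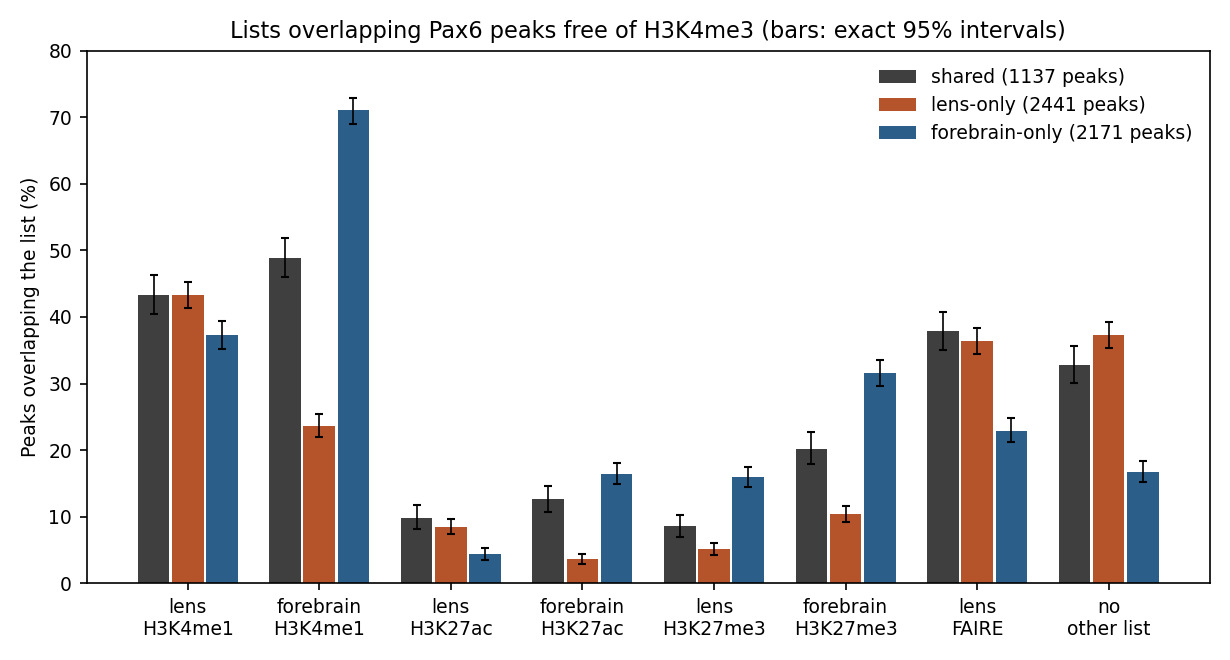
Percentage of shared (dark, 1137), lens-only (orange, 2441) and forebrain-only (blue, 2171) Pax6 peaks that overlap each list by at least 1 bp, all free of H3K4me3, with exact 95% intervals as error bars. Forebrain H3K4me1 stands at 48.9% of shared peaks, between 23.6% of lens-only and 71.0% of forebrain-only peaks, while lens H3K4me1 and FAIRE are near alike at shared and lens-only peaks.

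At single regions the H3K4me1 states of the tissues went together. Both tissues had the mark at 400 shared peaks (35.2%, 32.4% to 38.0%, against 24.4% of all lens Pax6 peaks). Only lens had it at 93, only forebrain at 156, and neither at 488. Where 1 tissue alone had the mark, it was forebrain at 62.7% of such shared peaks. The same share was 17.8% at lens-only and 92.2% at forebrain-only Pax6 peaks. Of the 493 shared peaks with lens H3K4me1, 81.1% (77.4% to 84.5%) also had the forebrain mark, against 24.2% (21.0% to 27.7%) of those without it. Of the lens-only peaks with lens H3K4me1, 42.1% (39.1% to 45.2%) had the forebrain mark, and of the forebrain-only peaks with it 91.6% (89.5% to 93.4%). H3K4me1 of both tissues lay at 18.2% of lens-only and 34.1% of forebrain-only peaks, the last close to the 35.2% of shared peaks. The excess of forebrain over lens at shared peaks depended on list length. With both H3K4me1 lists held to the same number of strongest islands the shares were 43.4% in lens and 34.7% in forebrain, so the order turned. In that setting 189 shared peaks had the mark in lens only and 91 in forebrain only. With stricter lists the numbers were 68 in lens only and 211 in forebrain only, in the order of the full lists.

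H3K27ac was listed at fewer shared peaks than H3K4me1, and at few of them in both tissues. It overlapped 112 in lens (9.85%, 8.18% to 11.7%) and 143 in forebrain (12.6%, 10.7% to 14.6%), against 12.2% and 10.5% of all lens Pax6 peaks. At lens-only peaks the shares were 8.44% in lens and 3.56% in forebrain, and at forebrain-only peaks 4.33% and 16.4%. Both tissues had it at 56 shared peaks (4.93%, 3.74% to 6.35%), against 5.64% of all lens Pax6 peaks, which include those with H3K4me3. Among peaks free of H3K4me3 the share was 1.35% (0.932% to 1.89%) at lens-only and 2.72% (2.08% to 3.49%) at forebrain-only peaks. Lens only had H3K27ac at 56 shared peaks and forebrain only at 87. Where 1 tissue alone had it, it was forebrain at 60.8% of such shared peaks, beside 23.8% at lens-only and 89.5% at forebrain-only Pax6 peaks. At least 1 tissue had it at 199 (17.5%, 15.3% to 19.8%), against 17.1% of all lens Pax6 peaks. Nearly all acetylated shared peaks lay in H3K4me1 of the same tissue, 103 of 112 in lens and 138 of 143 in forebrain. Of the shared peaks without H3K27ac of that tissue, 38.0% did so in lens and 42.1% in forebrain. The same counts were not made for the other Pax6 peaks, so it is not known whether this is particular to shared peaks. RNA polymerase II peaks overlapped 3 shared peaks in lens (0.264%) and 1 in forebrain (0.088%), against 1.1% and 0.498% of all lens Pax6 peaks, those with H3K4me3 included. At lens-only peaks free of H3K4me3 the shares were 0.287% in lens and 0.041% in forebrain, and at such forebrain-only peaks 0.553% and 0.461%.

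The acetylation lay beside the Pax6 summit more than on it. Lens H3K27ac covered the lens Pax6 summit at 2.99% of shared peaks, and its coverage reached 12.1% at 500 bp. Forebrain H3K27ac covered 6.77% of the same summits and reached 10.6% at 350 bp. The sides were much alike: at 400 bp toward lower and higher coordinates the coverage was 11.3% and 11.9% in lens, and 9.67% and 10.3% in forebrain. Where an H3K27ac peak overlapped a shared peak, its summit lay a median of 362 bp from the Pax6 summit in lens (135 H3K27ac peaks) and 321.5 bp in forebrain (154 H3K27ac peaks). The overlap of H3K27ac with shared peaks therefore rested on the rule for overlap. Within 1500 bp of the lens summit, an H3K27ac peak was found at 235 shared peaks in lens (20.7%) and 234 in forebrain (20.6%). With a gap of up to 1 kb allowed, the shares were 19.96% in lens and 19.5% in forebrain, and the excess of forebrain was gone. These wider windows were not applied to the other Pax6 peaks, so their shares have no background here. A dip at the summit was also present at lens-only peaks, where lens H3K27ac covered 2.66% of summits and reached 10.6%.

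**Figure D2:**
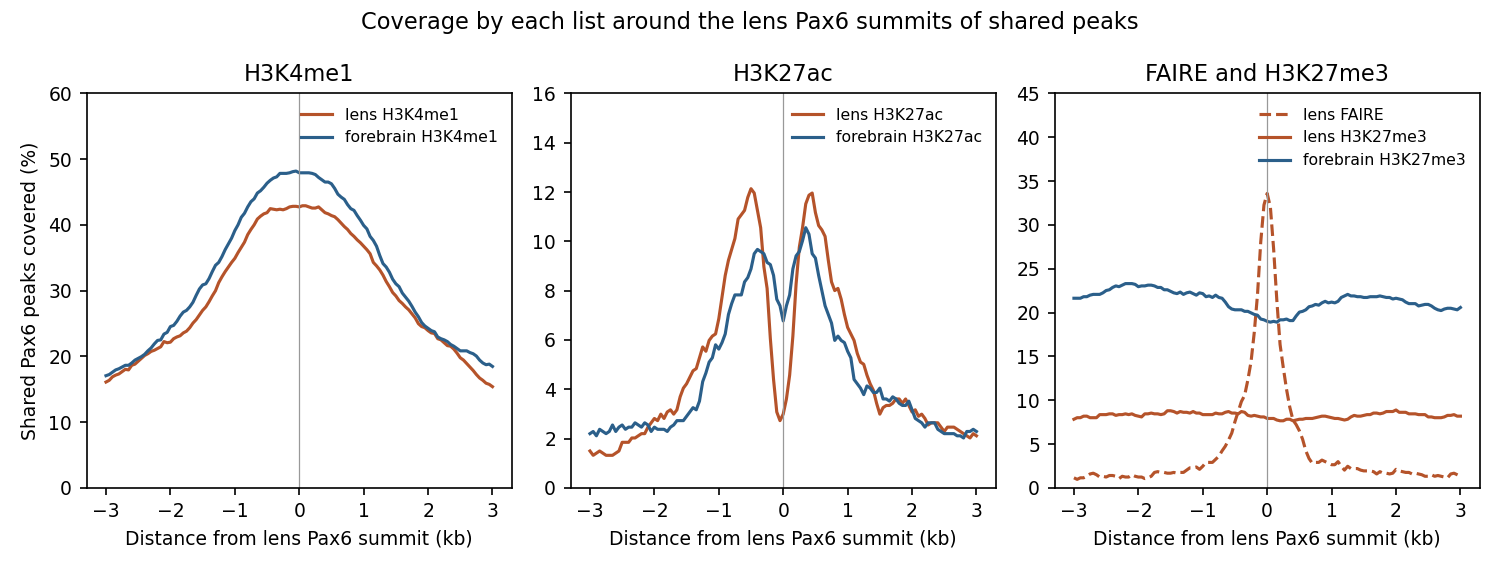
Percentage of the 1137 shared Pax6 peaks covered by each list at each 50 bp step within 3 kb of the lens Pax6 summit (lens orange, forebrain blue, FAIRE dashed); each panel has its own vertical scale from 0. FAIRE is highest at the summit (33.6%), lens H3K27ac is low there (2.99%) and highest at 500 bp (12.1%), H3K4me1 is broad, lens H3K27me3 is 7.92% at the summit and at most 8.88%, and forebrain H3K27me3 is 19.0% at the summit and at most 23.3%.

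The shared peak with the highest ranks in this acetylated group (H3K4me1 and H3K27ac in both tissues, 49 peaks) lay at chr9:77350243-77350911. Its fold enrichment over control, as given in the authors' peak lists, was 22.6 in lens and 31.5 in forebrain, and lens FAIRE covered part of it as well. The next, at chr8:15003093-15003603, had 32.9 in lens and 20.01 in forebrain and was in the same lists. Of the 56 peaks acetylated in lens only, chr2:31816424-31817038 ranked highest, at 26.3 in lens and 26.6 in forebrain, and lay in H3K4me1 of both tissues. Of the 87 acetylated in forebrain only, chr4:141097567-141098433 ranked highest, at 37.8 in lens and 41.0 in forebrain, in H3K4me1 of both tissues and in FAIRE.

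H3K27me3 was more frequent in the forebrain list. It covered 97 shared peaks in lens (8.53%, 6.97% to 10.3%) and 230 in forebrain (20.2%, 17.9% to 22.7%), against 6.06% and 13.5% of all lens Pax6 peaks. At lens-only peaks the shares were 5.12% in lens and 10.4% in forebrain, and at forebrain-only peaks 15.9% and 31.5%. Both tissues had it at 69 shared peaks (6.07%, against 3.8% of all lens Pax6 peaks), lens only at 28 and forebrain only at 161. H3K27me3 of both tissues lay at 2.83% of lens-only and 11.7% of forebrain-only peaks. The lens list held more H3K27me3 islands, 31034 against 25473 in forebrain. Holding both lists to the same number of strongest islands thus shortened the lens list alone. The shares were then 7.12% in lens and, unchanged, 20.2% in forebrain. The excess of forebrain could not shrink in that setting, so it was not tested by it. That setting does not make the bases covered equal. The forebrain islands at shared peaks had a median width of 10700 bp (9000 to 11800), against 5000 bp in the whole list. Wider islands overlap more peaks by construction, so the whole list is not a like group. The median was 9200 bp for islands at lens-only and 15400 bp for islands at forebrain-only peaks. Island width thus moved with the share of peaks covered, and its part in that share was not tested.

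The Polycomb mark and H3K4me1 often lay over the same shared peak. Of the 230 with forebrain H3K27me3, 158 (68.7%, 62.3% to 74.6%) also lay in forebrain H3K4me1, against 43.9% (40.6% to 47.2%) of those without. Lens H3K4me1 lay at 140 of the 230 (60.9%), and H3K4me1 of both tissues at 118 of them, which is 10.4% of all shared peaks, against 5.56% of all lens Pax6 peaks. That combination lay at 3.36% of lens-only and 11.7% of forebrain-only peaks, so it was not particular to shared peaks. These calls come from whole tissues, so both marks on 1 region and each mark in different cells cannot be told apart. Forebrain H3K27ac lay at 7.83% (4.70% to 12.1%) of the shared peaks with forebrain H3K27me3 and at 13.8% (11.6% to 16.2%) of those without. In lens, H3K27ac lay at 3 of the 97 with lens H3K27me3 (3.09%, 0.642% to 8.77%) and at 10.5% (8.69% to 12.504%) of those without. Between tissues, 22 shared peaks had lens H3K27ac and forebrain H3K27me3 (1.93%, against 1.81% of all lens Pax6 peaks), and 13 had the reverse (1.14%, against 0.629%). The share of the first kind was 1.07% at lens-only and 0.829% at forebrain-only peaks. For the reverse it was 0.205% at lens-only and 3.27% at forebrain-only peaks. The first kind included chr10:20802252-20802917, with a fold enrichment of 14.9 in lens and 22.2 in forebrain, in H3K4me1 of both tissues and in FAIRE. The highest-ranked peak with H3K27me3 in both tissues, chr4:7924245-7924728, had 22.0 in lens and 28.7 in forebrain and also lay in H3K4me1 of both and in FAIRE.

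Lens FAIRE, the measure of open chromatin, met 431 shared peaks (37.9%, 35.1% to 40.8%), against 37.5% of all lens Pax6 peaks. The share was 36.4% (34.5% to 38.4%) at lens-only and 22.9% (21.2% to 24.8%) at forebrain-only peaks. The FAIRE regions were centred on the Pax6 sites, with a median of 94 bp between their centre and the lens summit, and they contained that summit at 382 of the 431. That was 88.6%, beside 88.9% at lens-only and 84.3% at forebrain-only peaks with FAIRE, the last taken at forebrain summits. Their median width was 413 bp, beside 384.5 bp at lens-only and 387.5 bp at forebrain-only peaks, and 265 bp in the whole FAIRE list. Wider regions meet more peaks by construction, so the whole FAIRE list is not a like group.

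Within the shared peaks, the FAIRE share was higher with H3K4me1 or H3K27ac of either tissue and with forebrain H3K27me3, but not with lens H3K27me3. It met 62.0% (57.0% to 66.8%) of those with H3K4me1 in both tissues, 50.5% (40.0% to 61.1%) with H3K4me1 in lens only, 40.4% (32.6% to 48.5%) in forebrain only and 15.0% (11.9% to 18.4%) in neither. With lens H3K27ac it met 73.2% (64.0% to 81.1%), against 34.0% (31.1% to 37.0%) without. Peaks acetylated in lens only had FAIRE at 47 of 56 (83.9%, 71.7% to 92.4%), and those acetylated in forebrain only at 47 of 87 (54.0%, 43.0% to 64.8%). Shared peaks in forebrain H3K27me3 had it at 115 of 230 (43.4% to 56.6%), against 34.8% (31.7% to 38.0%) without that mark. For lens H3K27me3 it was 33.0% (23.8% to 43.3%) with the mark and 38.4% (35.4% to 41.4%) without.

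**Figure D3:**
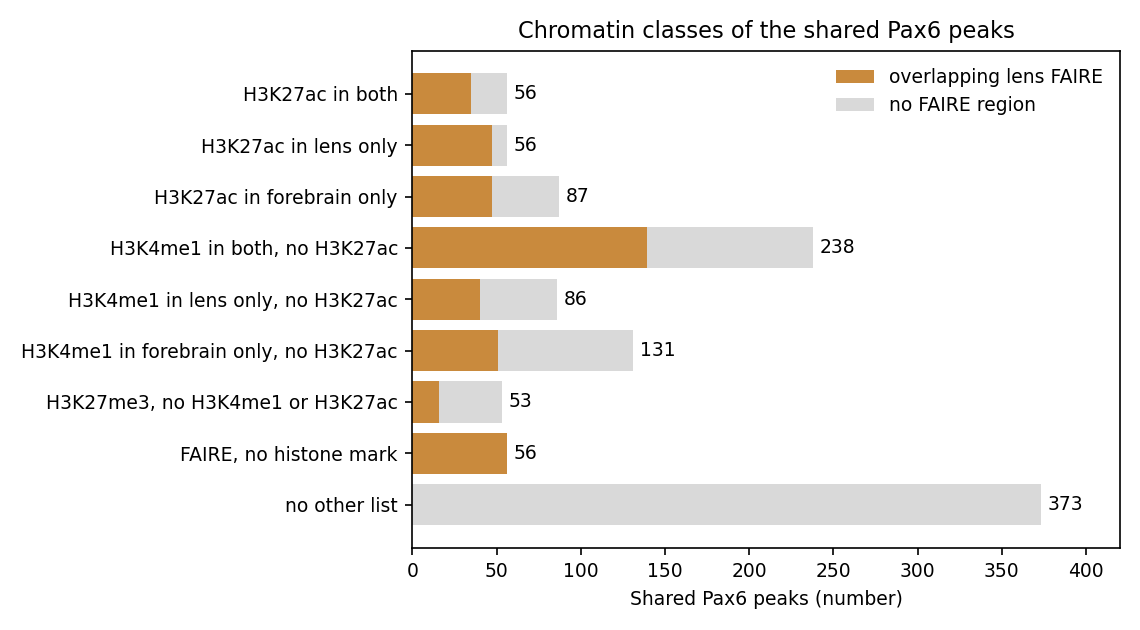
Number of shared Pax6 peaks in each chromatin class, each peak counted once from the top class down, with the part that overlaps lens FAIRE in brown. A class of 373 peaks with no other list is the longest bar, followed by 238 with H3K4me1 in both tissues and no H3K27ac; 1 peak with RNA polymerase II alone is not drawn.

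The largest class of shared peaks lay in no other list. Outside the Pax6 lists, 373 shared peaks (32.8%, 30.1% to 35.6%) overlapped none of the 9 other lists, against 33.8% of all lens Pax6 peaks. The share was 37.3% (35.4% to 39.2%) at lens-only and 16.7% (15.1% to 18.3%) at forebrain-only peaks. With gaps of up to 1 kb allowed it was 27.2%. Their median fold enrichment was 7.83 (7.23 to 8.21) in lens, near the 7.89 of all shared peaks. In forebrain it was 7.72 (7.41 to 7.92), below the 8.36 (7.97 to 8.65) of all shared peaks. The strongest by rank, chr10:83068258-83068856, had a fold enrichment of 24.97 in lens and 31.3 in forebrain, with the summits 3 bp apart. Another, chr15:15906575-15907028, had 16.8 in lens and 23.0 in forebrain. Counting histone marks alone, 430 shared peaks (37.8%, 35.0% to 40.7%) had none, against 41.4% of all lens Pax6 peaks, 46.6% of lens-only and 18.5% of forebrain-only peaks. Of these 430, 56 had FAIRE (13.02%, 9.99% to 16.6%), led by chr2:76655806-76656204 with 20.7 in lens and 24.2 in forebrain. The shared peaks fell into 66 combinations of lists, of which 15 held at least 20 peaks. After no list, the most frequent were H3K4me1 of both tissues with FAIRE (82 peaks), H3K4me1 of both alone (58), FAIRE alone (56) and forebrain H3K4me1 alone (53).

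Peak strength is described without a test, because the Pax6 calls chose the regions. In the lens list the median fold enrichment was 7.89 (7.56 to 8.21) at shared and 6.61 (6.57 to 6.89) at lens-only peaks. In the forebrain list it was 8.36 (7.97 to 8.65) at shared and 6.33 (6.22 to 6.46) at forebrain-only peaks. Shared peaks were also wider, with a median of 319 bp against 270 bp at lens-only peaks, and 288 bp in forebrain against 239 bp at forebrain-only peaks. A wider peak meets other lists more often by construction, and the part of peak width in the shares given above was not tested. Among peaks free of H3K4me3, the shared share was 23.2% in the lowest and 45.8% in the highest 25% of lens fold enrichment. In the forebrain list it was 16.1% and 59.4%. Of the 10 strongest peaks of each whole list, any with H3K4me3 included, 7 in lens and 8 in forebrain were shared peaks free of H3K4me3. Of the 50 strongest it was 18 in lens and 39 in forebrain, and of the 100 strongest 33 and 77. Over the whole lists such peaks were 1137 of 3815 in lens and, counted as forebrain peaks, 1141 of 3536 in forebrain. The share among the 100 strongest was thus near that of the whole list in lens, and above it in forebrain.

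Across the 1137 shared peaks, fold enrichment in lens and forebrain had a Spearman correlation of 0.36 and a Pearson correlation of 0.40 on the log2 scale. The points share their sequence and mappability, and no p is given. Of the shared peaks, 246 stood in the top 25% of both lists, 26 in the top 25% of lens and the bottom 25% of forebrain, and 52 the other way. The pair with the highest forebrain value, chr3:159514886-159515415, had 36.5 in lens and 53.6 in forebrain, with summits 2 bp apart, in H3K4me1 of both tissues, forebrain H3K27me3 and FAIRE. At the other extreme, chr19:53927108-53927845 had 47.3 in lens and 3.84 in forebrain, and lay in H3K4me1 of both tissues, lens H3K27ac and FAIRE. An H3K4me3 peak of the lens list lay 287 bp from it. In the opposite direction, chr5:107006626-107006845 had 4.21 in lens and 16.2 in forebrain, and lay in forebrain H3K4me1, H3K27me3 of both tissues and FAIRE.

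**Figure D4:**
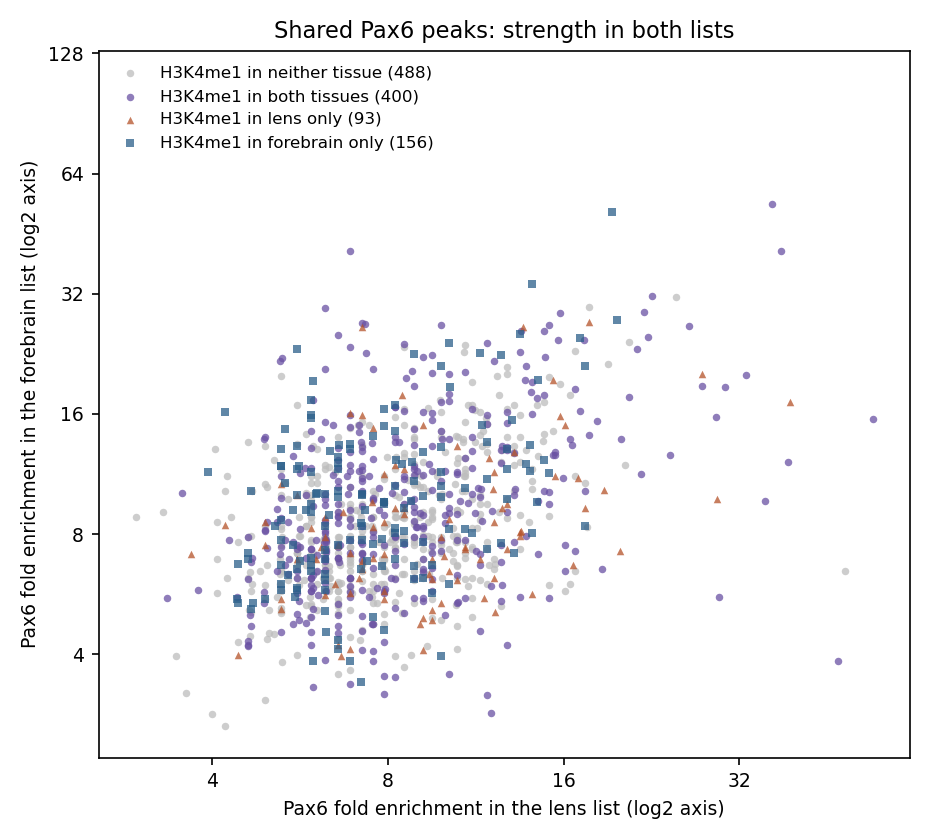
Pax6 fold enrichment of each of the 1137 shared peaks in the lens list (horizontal) and the forebrain list (vertical), on log2 axes, with colour and shape giving the tissue or tissues with H3K4me1. The cloud rises weakly from left to right (Spearman 0.36), and every H3K4me1 state is spread through it.

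Strength within each list differed somewhat with the H3K4me1 state. In lens, the median was 9.20 (7.89 to 9.98) where H3K4me1 was in lens only and 7.23 (6.57 to 7.89) where it was in forebrain only. In forebrain the order was the reverse, 7.88 (7.13 to 8.72) with the mark in lens only and 9.54 (8.36 to 10.1) with it in forebrain only. The intervals met in lens and overlapped in forebrain. With equal list lengths, an alternative chosen after these values were seen, the lens medians were 8.54 and 7.89 and the forebrain medians 8.31 and 9.60, in the same order with overlapping intervals. With stricter lists, also chosen afterwards, the lens medians were 9.53 (8.21 to 10.8) with the mark in lens only and 7.23 (6.57 to 7.56) in forebrain only, with intervals apart. The forebrain medians were then 8.91 (7.33 to 11.04) and 9.21 (8.25 to 10.01), with overlapping intervals. Peaks with the mark in both tissues had 7.89 (7.56 to 8.54) in lens and 9.02 (8.38 to 9.65) in forebrain. With the mark in neither, the medians were 7.89 (7.52 to 8.21) in lens and 7.88 (7.65 to 8.25) in forebrain. With FAIRE, the shared peaks had medians of 8.46 (7.89 to 8.87) in lens and 9.10 (8.59 to 9.69) in forebrain, against 7.56 (7.23 to 7.89) in lens and 7.88 (7.72 to 8.34) in forebrain without. With lens H3K27ac they had 8.87 (7.91 to 10.02) in lens and 9.51 (8.39 to 10.7) in forebrain, against 7.89 (7.56 to 8.06) in lens and 8.25 (7.88 to 8.59) in forebrain without, and both pairs of intervals overlapped. With forebrain H3K27me3 the lens median was 7.56 (7.23 to 7.89) and the forebrain median 9.13 (8.35 to 9.69), against 7.99 (7.56 to 8.21) in lens and 8.12 (7.88 to 8.53) in forebrain without. Both pairs of intervals overlapped here too.

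**Figure D5:**
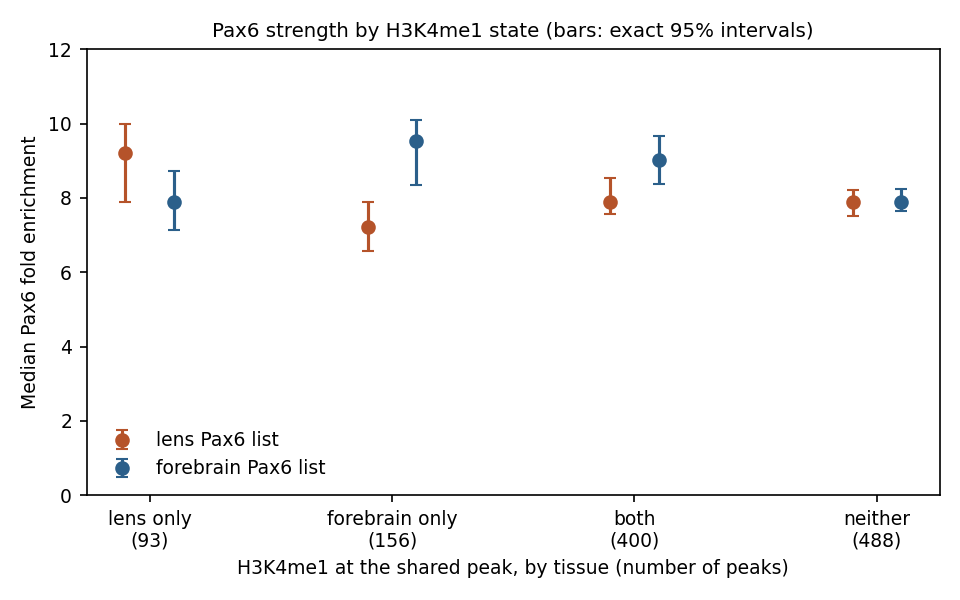
Median Pax6 fold enrichment of shared peaks by the tissue with H3K4me1, in the lens list (orange, left) and the forebrain list (blue, right), with exact 95% intervals. The lens median is 9.20 with the mark in lens only and 7.23 with it in forebrain only, and the forebrain medians, 7.88 and 9.54, have the other order.

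Among shared peaks that were strong in both lists, FAIRE and H3K27ac had higher shares, with intervals that overlapped those of the weakest. Ranked by the smaller of their percentile ranks in the lens and forebrain lists, the top 284 shared peaks had FAIRE at 47.2% (41.3% to 53.2%), and the lowest 287 at 36.9% (31.3% to 42.8%). The groups between had 34.2% and 33.3%. Lens H3K27ac lay at 15.1% (11.2% to 19.8%) of the top and 7.67% (4.87% to 11.4%) of the lowest group. Forebrain H3K27ac lay at 16.9% (12.7% to 21.8%) and 11.8% (8.35% to 16.2%). Across shared peaks, lens fold enrichment and lens peak width had a Spearman correlation of 0.66. Wider peaks meet more lists by construction, and the part of width in these shares was not tested. No list covered 28.5% of the top and 30.7% of the lowest group. Of the 10 highest-ranked peaks, 8 lay in H3K4me1 of at least 1 tissue and 7 in FAIRE.

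The 10 highest-ranked shared peaks differed in their chromatin, and 7 of them are given above. Of the rest, chr16:86516120-86516765 had a fold enrichment of 22.3 in lens and 24.9 in forebrain and lay in H3K4me1 of both tissues and in FAIRE. It was 614.5 kb from the nearest lens H3K4me3 peak. The peak at chr19:45670501-45671024, with 21.4 in lens and 23.3 in forebrain, lay in H3K4me1 of both tissues, forebrain H3K27me3 and FAIRE. Its summits were 130 bp apart, the widest distance of the 10. The last, chr15:98871827-98872299, with 19.7 in lens and 27.5 in forebrain, had no lens H3K4me1 and no FAIRE. It lay in H3K4me1 and H3K27ac of forebrain and in H3K27me3 of lens. Apart from the peak with FAIRE alone and the peak in no other list, every one of the 10 thus carried H3K4me1 in forebrain, and all of these but the one on chromosome 15 carried it in lens as well.

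The rule required the calls of both tissues to overlap, which by itself limits how far apart their summits can lie. The overlaps and summit distances are therefore given as a description only. The overlap was 71 to 761 bp long, with a median of 252 bp, and the median distance between the summits was 24 bp. They lay within 50 bp at 77.9% and within 100 bp at 94.5%. Few regions lay near the limits of the rule. The smallest overlaps were 71, 91 and 93 bp, and the closest lens-only peaks had gaps of 7, 17 and 17 bp to a forebrain peak. Only 3 lens-only peaks lay within 100 bp of one. The shared peaks closest to H3K4me3 were 3, 9 and 24 bp away, and the shared peaks just excluded overlapped it by 1, 4 and 13 bp. The median distance to H3K4me3 was 86.5 kb from the nearest lens peak and 94.97 kb from the nearest forebrain peak. At lens-only peaks it was 94.2 kb in lens and 104.5 kb in forebrain, and at forebrain-only peaks 102.6 and 105.1 kb. Within 10 kb of H3K4me3 of either tissue lay 144 shared peaks (12.7%), beside 9.95% of lens-only and 11.7% of forebrain-only peaks. They were also scattered, with a median of 1291 kb between neighbours and 9 neighbouring pairs within 5 kb. Which genes lie near the regions was not analysed here.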

How the data were processed

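ChIP-seq, FAIRE and RNA-seq of the series were used as the authors' deposited lists and tables. The authors called peaks of the 2 factors (Pax6 and RNA polymerase II), of H3K4me3 and of H3K27ac with MACS2 on mm9, per the submitters' processing notes. The deposited peak lists give a fold enrichment over control (a ratio), -log10 p and q, and a score made from q. H3K4me1 and H3K27me3 islands come from SICER (windows of 200 bp, gaps of 600 bp, FDR 0.001, per the file headers and names), and the deposited tables give ChIP and control read counts, a scaled ratio, a p-value and an FDR per island. FAIRE regions were deposited by the authors with no score. RPKM values are the authors' deposited values, with TopHat2 (version 2), Cufflinks (version 2) and Cuffdiff named in the submitters' processing notes without their roles. Not given in the sources used here are the aligner of the ChIP reads, the controls, and how the 2 forebrain Pax6 replicates were combined.

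Overlaps of at least 1 bp were found with Python 3.11.15, pandas 2.3.3 and scipy 1.17.1. Counts from this code were the same as those of bedtools 2.31.1 for all 12 lists overlapped with lens Pax6 peaks, and the code was tested on simulated intervals. Shares have exact Clopper-Pearson 95% intervals, and medians have exact order-statistic intervals. There is 1 list per tissue and mark and peaks are not replicates, so no test was run. Alternatives were a larger overlap, a gap of 1 kb, cover of the summit, stricter lists, equal list lengths, forebrain peaks as units, and leaving out peaks near H3K4me3 or in islands rich in control reads. Equal list lengths means the same number of intervals in both tissues, not the same bases covered.

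The regions and lists were chosen with earlier results of these data known. Regions were named by rule: the 10 with the highest smaller percentile rank of fold enrichment over both lists, the 2 highest in each of 8 chosen chromatin groups, the 3 with the largest rank difference in each direction, and those nearest the limits, with none from chromosome 18. The text gives a part of them. Coordinates are 1-based on mm9. No mm9 genome or annotation was used, so no sequences or genes are given.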

Additional observations from a re-analysis of the deposited data

How the results depend on the processing

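Of 78 values recomputed under 8 alternatives, 62 stayed within the interval of the main value, or within 1.5 times it for the number of shared peaks. Some of them could hardly move. With equal list lengths the lists of lens H3K4me1, lens H3K27ac and forebrain H3K27me3 were unchanged, and so were their shares. Leaving out control-rich islands removed only 16 of the 1137 shared peaks, and forebrain peaks as units counted nearly the same regions. The count of 62 is thus no measure of stability. When the shorter interval had to be covered over 0.5 of its length, H3K27ac lay at 3.83% of shared peaks in lens and 7.91% in forebrain. With a gap of up to 1 kb the shares were 19.96% for lens and 19.5% for forebrain H3K27ac, 12.2% for lens and 25.9% for forebrain H3K27me3, 44.9% for FAIRE and 27.2% for no other list. When the list had to cover the lens summit, they were 2.99% for lens and 6.77% for forebrain H3K27ac and 33.6% for FAIRE. With stricter lists they were 31.5% for lens and 43.8% for forebrain H3K4me1 and 6.35% for lens H3K27me3. With equal list lengths they were 34.7% for forebrain H3K4me1 and 10.1% for forebrain H3K27ac. Except where the construction itself gives it (more or fewer bases that count, fewer islands), the cause was not tested. In the alternatives chosen after the values were seen, 189 shared peaks had H3K4me1 in lens only and 91 in forebrain only with equal list lengths, and 68 and 211 with stricter lists, beside 93 and 156 in the full lists.

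No paired analysis was possible because each tissue and mark has 1 list, with no value per replicate. Leaving out a replicate was not run for the same reason. The FAIRE list has no score, so it was neither made stricter nor shortened. Depth behind the peak lists is unknown, and signal under the threshold of a list is not seen.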

Other observations

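The 105 Pax6 peaks that overlapped in both tissues and also met H3K4me3 had other marks in other shares. H3K27ac lay at 72.4% (exact 95% interval 62.8% to 80.7%) of them in lens and 79.0% (70.0% to 86.4%) in forebrain. RNA polymerase II lay at 21 of them (12.8% to 28.9%) in lens and 11.4% (6.05% to 19.1%) in forebrain. H3K4me1 lay at 14.3% (8.22% to 22.5%) in lens and 44.8% (35.0% to 54.8%) in forebrain, and only 3 of the 105 lay in no other list. Lens FAIRE lay at 31.4% (22.7% to 41.2%), and the median Pax6 fold enrichment in the lens list was 7.71 (6.90 to 8.87).

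By chromosome, the shared peaks free of H3K4me3 made up between 20.9% (15.2% to 27.5%) of the lens Pax6 peaks, on chromosome 13, and 38.2% (32.7% to 43.9%), on chromosome 2. Islands in the top 1% of control reads per kb held 16 of the 1137 shared peaks, a count that was not made for the other Pax6 peaks. Neighbouring shared peaks seldom lay in the same island: 12 shared a lens H3K4me1 island with another and 16 a forebrain H3K4me1 island, with at most 2 in any island.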
